A study of Mus musculus with 2 samples.

Results

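Polysome association was examined here for 9 genes of the CCN family and of the YAP pathway: Cyr61, Ctgf, Nov, Wisp1, Wisp2, Ankrd1, Amotl2, Lats2 and Yap1. They were found by gene name among the non-control spots of both arrays, which gave 12 probes of 41141 probes in all, and 9 genes of 28080 gene names. The cells were NIH3T3, a mouse embryonic fibroblast line, kept in medium with 10% bovine serum. Control cells received no thapsigargin, and stressed cells received 10 µM thapsigargin for 3 h, which blocks the pump that loads the endoplasmic reticulum with calcium. Per the study's methods, cells were also given cycloheximide, which freezes ribosomes on mRNA, shortly before lysis. Lysates were centrifuged in sucrose of 10 to 40%. The polysome-bound pool (P) carried Cy3, and the pool of free and monosomal RNA (FM) carried Cy5. Each condition had 1 two-colour array, made from RNA of 3 preparations pooled, so differences between the conditions could not be tested against replicates. No array with the dyes exchanged was used here, so a fraction and its dye cannot be told apart within an array.

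CCN proteins are secreted matricellular proteins that bind integrins, heparan sulfate proteoglycans and growth factors, and they regulate adhesion, migration and matrix production in fibroblasts. YAP is a transcriptional coactivator that works with TEAD factors on DNA. When the Hippo kinases are active, LATS kinases phosphorylate YAP and it is held in the cytoplasm. Cyr61, Ctgf and Ankrd1 are widely used as readouts of YAP activity, and Amotl2 and Lats2 are targets of YAP that restrain it in turn. Cyr61 and Ctgf are also immediate-early genes of the serum response, with short-lived mRNAs.

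The promoter letters are shown because several of these genes are targets of YAP, which works with TEAD factors. TEAD factors bind DNA at GGAATG, and both strands were searched for it (CATTCC on the other strand) from 250 bases before to 50 bases after each start site. The promoters came from RefSeq, assembly GRCm38.p6. Among the members, 5 genes had a promoter in the table, and each of them held at least 1 match. Ctgf, Nov, Wisp1 and Wisp2 were not in it. Over all promoters in the table, 14.7% of 32851 held a match, as did 16.6% of 27025 genes. A match is a description of these letters and not a binding site. The lines below give each match in capitals, 5′ to 3′ on the strand of the gene.
Cyr61, chr3:145650071-145650100, minus strand: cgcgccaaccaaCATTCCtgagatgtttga
Ankrd1, chr19:36120037-36120066, minus strand: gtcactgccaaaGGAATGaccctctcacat
Ankrd1, chr19:36119950-36119979, minus strand: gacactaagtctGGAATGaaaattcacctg
Amotl2, chr9:102717727-102717756, plus strand: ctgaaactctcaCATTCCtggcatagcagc
Lats2, chr14:57746102-57746131, minus strand: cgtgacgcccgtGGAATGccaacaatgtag
Yap1, chr9:8004720-8004749, minus strand: cgggagtctgcaGGAATGtagcgacgcgca
The matches began at -103 from the start site in Cyr61, at -210 and -123 in Ankrd1, at -65 in Amotl2, at 5 in Lats2 and at -141 in Yap1. Lats2 had 2 promoters in the table, and 1 of them held the match.

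Signals are given as spot intensity minus local background. log2 P/FM is the log2 ratio of the P to the FM signal of a probe, and 0 marks equal signals in both channels. A averages the log2 P and log2 FM signals and was used by the study as a measure of relative abundance. Probes with A above 4.5 on both arrays were analysed, and a change of 1 on the log2 scale, which is 2-fold, was counted as a rise or a fall. Of the member probes 11 passed, from 8 genes, and the Nov probe did not. As the nearest substitute for a replicate error, the median SD of the change in log2 P/FM was 0.10 between spots of 1 probe (118 probes) and 0.32 between probes of 1 transcript (3438 transcripts). Neither spread takes in the variation between preparations. Every member probe was 1 spot of 60 bases.

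Most member probes shifted towards polysomes under thapsigargin, while most probes of the array shifted away from them. Over all 17173 probes the median log2 P/FM was 0.22 on the control and -0.29 on the thapsigargin array, and the median change was -0.61. That median was above 0 with normexp background correction (0.39) and with spike-in scaling (1.94). Over the 11 member probes the medians were -0.80 and 0.63, and the median change was 1.07. Here 6 member probes rose by 1 or more in log2 P/FM, where 14.1% of all probes did, and 1 fell by 1 or more, where 38.4% of all probes did. The rises were those of Cyr61, Ctgf, Wisp1, Amotl2 and 2 probes of Lats2, and the fall was that of Wisp2. For A the median change was -0.11 over the member probes and 0.37 over all probes. In A, 1 member probe (Wisp1) rose by 1 or more, where 12.7% of all probes did, and 1 (Cyr61) fell by 1 or more, where 1.29% of all probes did.

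**Figure D1:**
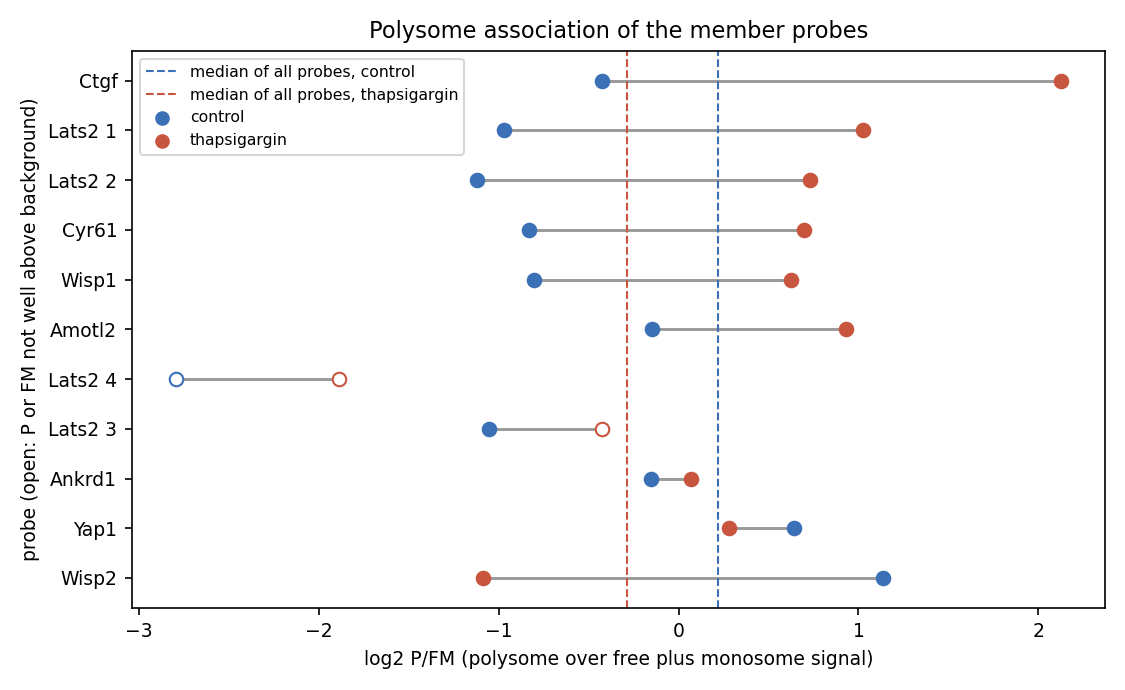
log2 P/FM (horizontal axis) of the 11 member probes that passed the filter, 1 row a probe, in control (blue) and stressed (red) cells, with dashed lines at the medians of all probes, 0.22 and -0.29. Open points have a P or FM signal that was not well above background. Cyr61, Ctgf, Wisp1, Amotl2 and 2 Lats2 probes moved from below 0 to above 0, and Wisp2 moved the opposite way.

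Most member probes lost FM signal. FM was lower in stressed cells at 8 of 11 member probes, against 17.6% of all probes, and FM was lower while P was higher at 7 of 11, against 11.7%. In 7 of 11 member probes log2 P/FM crossed from below to above 0 under thapsigargin, against 14.8% of all probes. These counts are descriptions. Both counts of FM include all 4 Lats2 probes, which are probes of 1 gene, and 2 of these had a signal at background. Ankrd1 is in both counts with small changes, -0.15 in log2 FM and 0.07 in log2 P.

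Cyr61 (now Ccn1, NM_010516) encodes a secreted integrin ligand. Its probe lies at chr3:145310187-145310246 on the minus strand of mm9, the build of all probe positions here. Its P signal was 1570.3 in control cells against 903 in stressed cells, and its FM signal was 2795 against 558. Both fractions therefore held less Cyr61 signal under thapsigargin, and the FM fraction lost far more of it. log2 P/FM went from -0.83 to 0.70, a change of 1.53 or 2.88-fold. That change was at percentile 92.3 of all probes. A fell by 1.56, from 11.03 to 9.47, and this fall was at percentile 0.355 of all probes. The sum of both signals went from 4365 to 1461. Cyr61 thus combined a lower total signal with a larger share of it on polysomes. Labelling used 300 ng of RNA in total per sample, so a signal is relative to the RNA of the sample, and the amount of RNA per cell was not measured. Per the study's methods, this total was divided in the proportions of the fractions. Control cells had more P than FM RNA, and stressed cells had more FM than P RNA. The channels therefore did not start from equal RNA, and their split differed between the arrays.

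Ctgf (now Ccn2, NM_010217), the fibrotic CCN member that is induced by TGF-beta and by YAP, had the largest rise in log2 P/FM among the member probes. The probe maps to chr10:24318281-24318340 on the plus strand. P was 843 on the control and 1401 on the thapsigargin array, and FM was 1131 and 322. The FM signal dropped while the P signal rose. log2 P/FM went from -0.42 to 2.12, a change of 2.55 or 5.85-fold, at percentile 98.6 of all probes. In stressed cells its log2 P/FM was at percentile 99.6, so few probes were more strongly polysomal on that array. A was 9.93 in control and 9.39 in stressed cells, a change of -0.54. The sum of the signals was close on both arrays, at 1973 and 1723.

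Wisp1 (now Ccn4, NM_018865), a CCN gene known as a target of Wnt signalling, rose in both measures. The position of its probe is chr15:66754637-66754696 on the plus strand. P went from 347 to 1576 and FM from 606 to 1022. Both signals were higher under thapsigargin, and P gained the more. log2 P/FM changed by 1.43, from -0.80 to 0.63, which is 2.69-fold. A went from 8.84 to 10.31, a change of 1.47 at percentile 97.2. Cyr61 and Wisp1 therefore reached similar log2 P/FM values, 0.70 and 0.63, with changes in A of opposite sign.

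Wisp2 (now Ccn5, NM_016873) lacks the C-terminal cystine-knot domain of the other CCN proteins and is known to restrain growth of smooth muscle cells. It was the only member probe past the filter whose log2 P/FM fell by 1 or more. Its probe maps to chr2:163658717-163658776 on the plus strand. P went from 1781 to 685 and FM from 809 to 1456. The larger signal was in P in control cells and in FM in stressed cells. log2 P/FM went from 1.14 to -1.09, a change of -2.23, which is 4.68-fold lower and at percentile 9.01. A changed by -0.26, from 10.23 to 9.96.

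Nov (now Ccn3, NM_010930) was not well above background in either channel on either array, and no fold is given for it. Its only probe is at chr15:54584204-54584263 on the plus strand. The P signals were 12.9 and 6.69 in control and stressed cells, and the FM signals were 9.09 and 17.3.

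**Figure D2:**
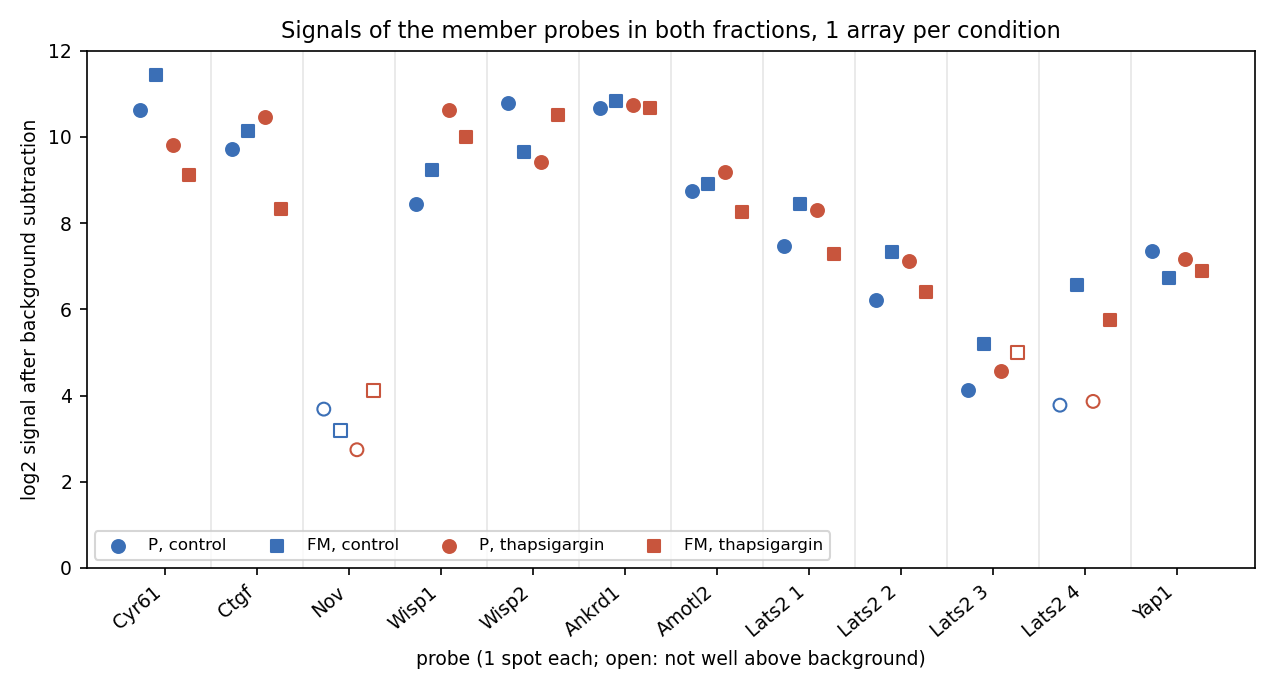
log2 signal after background subtraction (vertical axis) of all 12 member probes, for P (circles) and FM (squares) in control (blue) and stressed (red) cells, 1 array each. Open symbols were not well above background, which holds for all 4 Nov signals. In Cyr61, Ctgf, Amotl2 and the first pair of Lats2 probes the red square lies below the blue one, and in Wisp1 and Wisp2 it lies above. Levels of different probes are not comparable.

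Of the YAP target genes outside the CCN family, Ankrd1 (NM_013468), an ankyrin repeat protein of the nucleus and the sarcomere, changed little. Its probe lies at chr19:36186809-36186868 on the minus strand. P was 1630.2 and 1710.3 in control and stressed cells, and FM was 1812 and 1631. log2 P/FM was -0.15 and 0.07, a change of 0.22 that is below the 0.32 between probes of 1 transcript. A was 10.75 and 10.71. Relative to the median change of all probes the change was 0.83.

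Amotl2 (NM_019764), an angiomotin-like junction scaffold that binds YAP, passed the threshold narrowly. The probe is at chr9:102635025-102635084 on the plus strand. P went from 433 to 582 and FM from 478 to 306. P was higher and FM lower under stress, as in Ctgf. log2 P/FM changed by 1.07, from -0.15 to 0.93, which is 2.11-fold, and A changed by -0.11. The change was below 1 with median spot signals (0.997) and without background subtraction (0.96).

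Lats2 encodes a kinase that phosphorylates YAP, and it was represented by 4 probes on the minus strand of chromosome 14. The first pair, at chr14:58308807-58308866 and chr14:58308835-58308894, detects NM_015771 and shares 32 bases, so these probes are not independent. The first had P of 176 and 317 in control and stressed cells, and FM of 346 and 156. The second had P of 74.2 and 139, and FM of 162 and 84.0. In both, P was higher and FM lower in stressed cells. log2 P/FM went from -0.97 to 1.02 and from -1.12 to 0.73, and the mean change was 1.92 ± 0.098 (SD, n = 2 probes). A changed by -0.15 and -0.02 in them.

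The other probes of Lats2 each had a signal not well above background, so their ratios are uncertain. The third, at chr14:58309973-58310032, also detects NM_015771, and its P was 17.6 and 23.9 and its FM 36.6 and 32.1. Its log2 P/FM was -1.06 in control. Under thapsigargin its FM did not clear the background, so the computed log2 P/FM of -0.43 and change of 0.63 are uncertain and are not bounds. The fourth, at chr14:58341239-58341298, detects another transcript of the gene, NM_153382, with P of 13.7 and 14.6 and FM of 95.1 and 53.9. Because P stayed near background on both arrays, the computed log2 P/FM of -2.80 in control and -1.89 in stressed cells is uncertain, and no change is given. Both Lats2 transcripts thus had less P than FM in control cells, and the measured probes of NM_015771 had more P than FM in stressed cells.

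Yap1 (NM_009534), the coactivator itself, had P of 164 and 144 in control and stressed cells, and FM of 105 and 119. Its probe lies at chr9:7932540-7932599 on the minus strand. log2 P/FM was 0.64 and 0.28, a change of -0.36, and A was 7.04 and 7.03. The change is close to the 0.32 between probes of 1 transcript and lies 0.25 above the median change of all probes. With Wisp2, Yap1 was 1 of the members that had more P than FM in control cells.

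**Figure D3:**
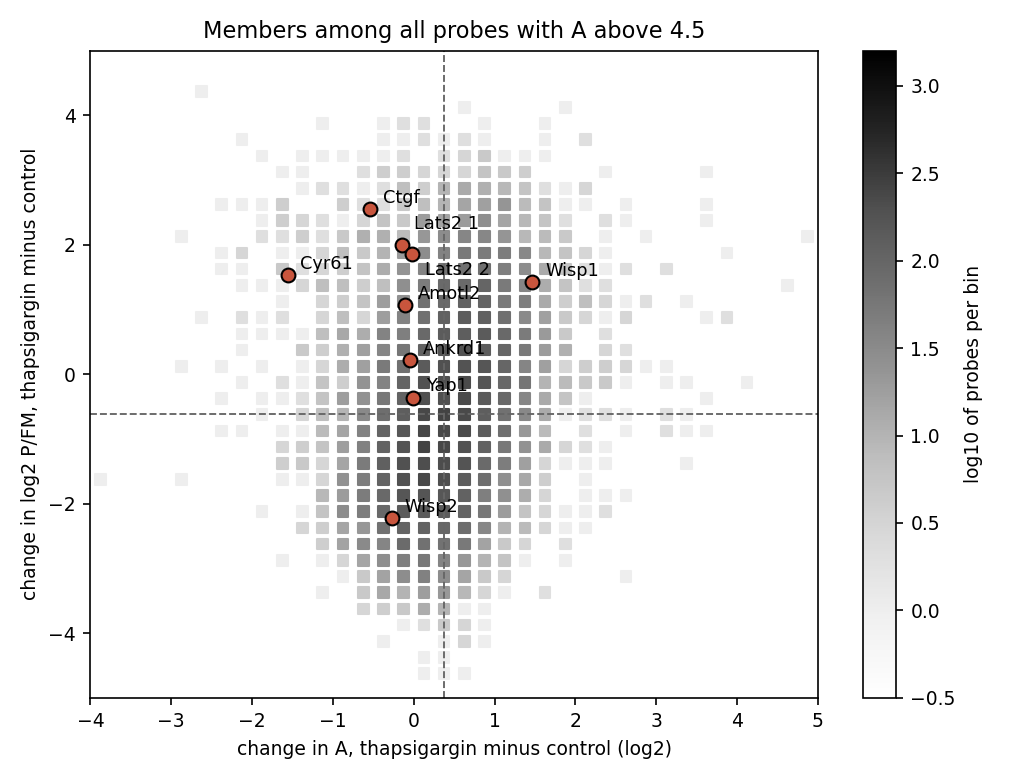
Change in A (horizontal axis) and in log2 P/FM (vertical axis), stressed minus control, of the 9 member probes with all signals well above background (red), over all 17173 probes binned in grey. Dashed lines mark the medians of all probes, 0.37 and -0.61. Cyr61 lies far to the left and Wisp1 to the right at similar heights, while Ctgf, Lats2 and Amotl2 lie above the bulk at small changes in A, and Wisp2 lies below it.

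The change in log2 P/FM differs with brightness, so each member was also set beside probes of like brightness. These had a mean A over both arrays within 0.5 of that of the member. The median change of such probes was -1.23 for Cyr61 (1482 probes) and -1.01 for Ctgf (1829 probes). It was -0.95 for Wisp1, -1.19 for Wisp2, -1.43 for Ankrd1 and -0.76 for Amotl2. It was -0.48 and -0.22 for the measured Lats2 probes and -0.27 for Yap1, whose own change of -0.36 was close to that. Against probes of like brightness the changes of Cyr61, Ctgf, Wisp1, Amotl2, the measured Lats2 probes and, by a smaller amount, Ankrd1 had the opposite sign.

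The ratios are not normalized between the dyes or arrays. The 10 control probes for spike-in RNA changed by a median of -2.44 in log2 P/FM between the arrays, which was more than the shift of all probes. Scaling each array to its spike-in probes added to every change and turned that of Wisp2 to 0.32. Taken minus the median change of all probes, the changes under 13 other settings ranged from 2.0 to 3.93 for Ctgf, from 1.05 to 2.92 for Cyr61, from 0.93 to 2.48 for Wisp1 and from 0.70 to 2.09 for Amotl2. For Lats2 they ranged from 0.45 (normexp) to 3.00 (A above 7), but the filters change which of its probes are averaged, and the upper value is that of its first probe alone. They ranged from -2.30 to -0.83 for Wisp2. For Ankrd1 they ranged from -0.13 to 1.63 and for Yap1 from -0.10 to 0.65, so the sign was not held. Ankrd1 was below 0 only with normexp. Yap1 was below 0 with normexp, without background subtraction and with loess (-0.0055). With normexp, without background subtraction and without the filter on A, the median taken off was over all 41141 probes.

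**Figure D4:**
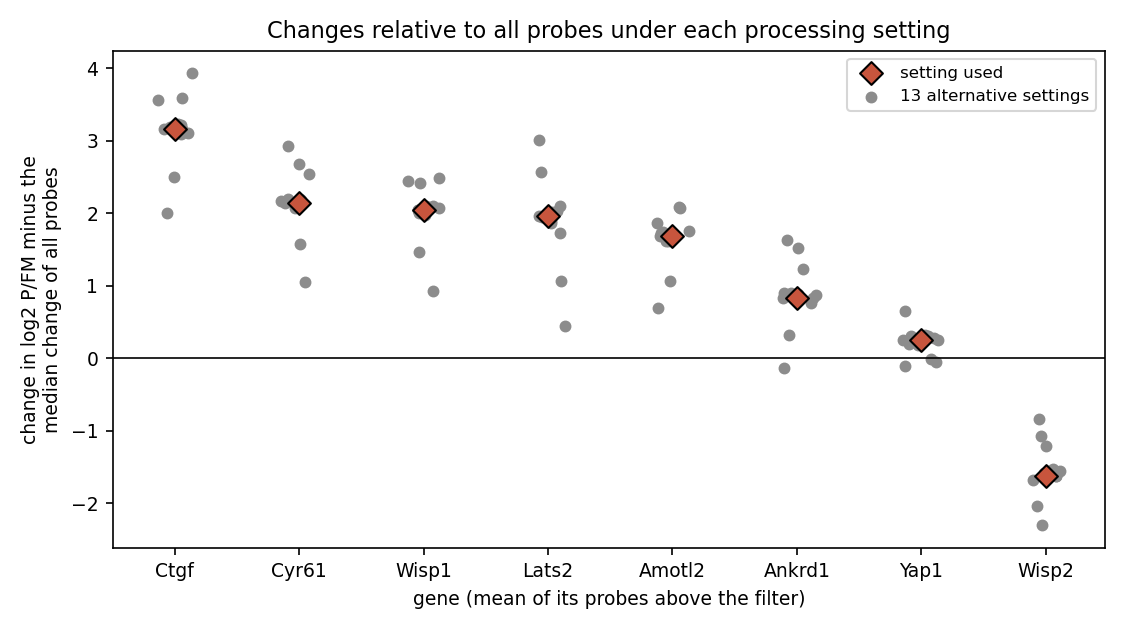
Change in log2 P/FM minus the median change of all probes (vertical axis) for the 8 member genes with values, under the setting used (red diamonds) and 13 other settings (grey points). Ctgf, Cyr61, Wisp1, Lats2 and Amotl2 stay above 0 and Wisp2 below 0 in every setting shown, while Ankrd1 and Yap1 cross 0. Centring and spike-in scaling shift all probes alike, so their points equal the setting used by construction. Quantile normalization of A leaves the points almost unchanged.

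The kinases and scaffolds of the Hippo pathway had 29 probes past the filter, of which 3 rose and 2 fell by 1 or more, with a median change of -0.18. Over all probes 14.1% rose and 38.4% fell, with a median of -0.61, so the share of rises here was near that of all probes. Amot, the founding angiomotin, rose by 2.39, from -1.07 to 1.32, and its relative Amotl2 also crossed from below to above 0. Their relative Amotl1, added outside the naming rule, had probes that changed by 0.88 and -0.04. These probes were dim, with A of 5.07 and 5.41 in control. Rassf1, a scaffold of the MST kinases, fell by 1.09 from 0.24 to -0.86, and Limd1, a LIM protein that binds LATS, changed by -0.99. The WW-domain scaffolds Wwc2 and Wwc1 changed by 0.96 and -0.87. Sav1, the partner of the MST kinases, had probes that disagreed, with 0.67 and -0.85. Lats1, the paralog of Lats2, was named after its values were seen: its probes changed by 1.95 and 1.94. All Lats1 signals were well above background. Their A in control, 6.89 and 5.76, was below the 7 set for naming, as was that of the second Lats2 probe (6.78).

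The DNA-binding and cofactor partners of YAP had 11 probes, of which 2 rose and 2 fell, with a median change of 0.06, beside 14.1% that rose and 38.4% that fell over all probes. Both rises were probes of Vgll3, a cofactor of TEAD, which changed by 1.31, from -1.13 to 0.18, and by 2.17. Both falls were probes of Tead2, which changed by -2.60, from -0.28 to -2.88, and by -1.80. Tead1 changed by 0.65. Wwtr1, which encodes the YAP paralog TAZ, had probes that disagreed, at 0.34 and -0.77.

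The other YAP target genes had 18 probes, of which 6 rose and 1 fell, with a median change of 0.29, where over all probes 14.1% rose and 38.4% fell. Myof, a membrane repair protein of the ferlin family, rose by 2.15, from -0.03 to 2.12, at the probe with its largest rise. Its other probes also rose by 1 or more, the next by 1.63. The rises were those of Myof, Crim1, Gadd45a and Rbms3, so they count probes and not separate genes. Rbms3 had an A of 5.64 in control, below the 7 set for naming. Crim1, which binds BMPs, rose by 1.37, with A at 9.39 and 9.51. Gadd45a, a growth arrest gene that is also induced by stress factors, rose by 1.15 in log2 P/FM, and its A rose by 3.30. Axl, a receptor tyrosine kinase, fell by 1.76 from 1.62 to -0.14. Foxf2 changed by -0.94 and Nuak2 by -0.90.

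The CCN receptors, integrins and other surface proteins that bind Cyr61 and Ctgf, had 12 probes, of which 4 rose and 3 fell, with a median change of 0.73, and the shares over all probes were 14.1% and 38.4%. Lrp1, the endocytic receptor for Ctgf, rose by 2.04, from -0.39 to 1.65. Itga6 rose by 1.21 and Itgb3 changed by 0.73. The falls were those of Itgb5, by 1.81, and of both probes of Sdc4, a heparan sulfate proteoglycan, by 1.86 and 1.32. Itgb5 and the Sdc4 probe with the larger fall went from above 1 to below 0.

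**Figure D5:**
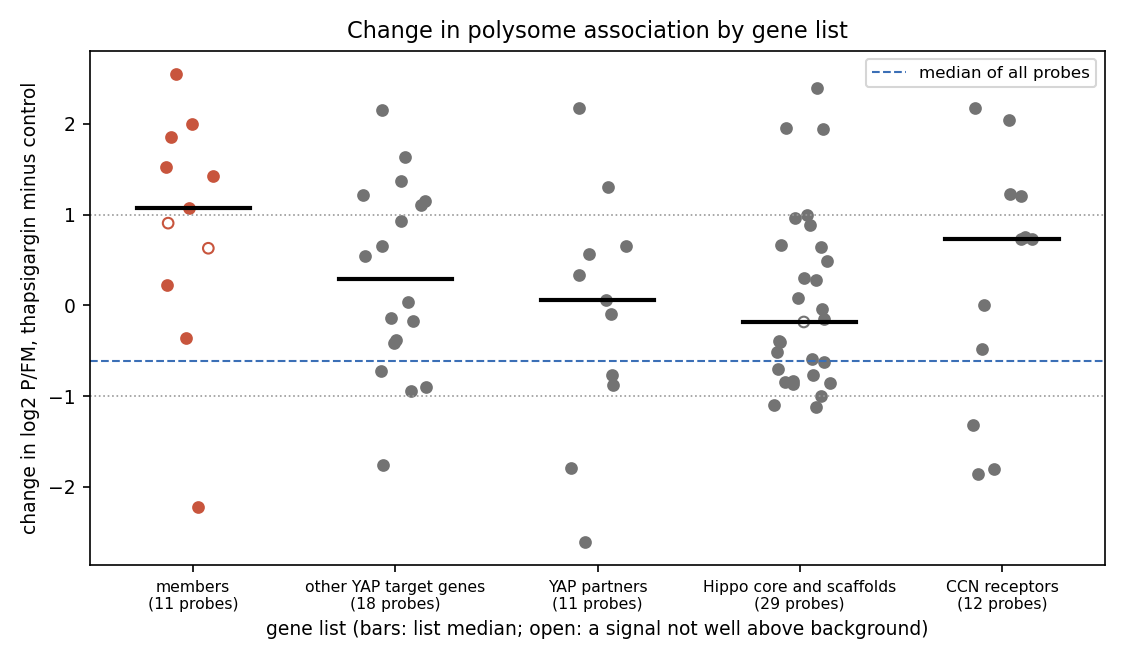
Change in log2 P/FM, stressed minus control (vertical axis), of each probe past the filter, for the members and 4 lists of related genes. Bars are list medians, the dashed line is the median of all probes at -0.61, dotted lines mark changes of 1 and -1, and open points have a signal that was not well above background. The member median is 1.07, and those of the other lists lie between -0.18 and 0.73.

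The probes nearest to Cyr61 and to Ctgf over the 4 log2 signals were looked up among 15625 probes with all signals well above background. For Cyr61 the nearest was Sgk1, a serum- and glucocorticoid-induced kinase, at a Euclidean distance of 1.09. Its log2 P/FM changed by 1.79 and its A by -2.42, so it too had a lower A and a higher P share. The next were 2610001J05Rik at 1.25 and B230118H07Rik at 1.28, and the latter changed by 0.0038 in log2 P/FM. For Ctgf the nearest were Sgpl1 at 0.783, Zfp764 at 0.859 and Plk2, a serum-induced kinase, at 0.884. These distances mix the level of a probe with its change, and they describe 1 array per condition.

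The arrays had similar shares of spots above background. Of 43379 transcript spots each, P was well above background at 42.5% and 44.6% and FM at 46.3% and 45.4% in control and stressed cells, and 0 were saturated. Hspa5, the main chaperone of the endoplasmic reticulum, and Ddit3, a stress-induced factor, rose in A by 1.96 and 3.71, while their log2 P/FM rose by 1.36 and 2.58. All 9 fibroblast marker genes passed the filter in 15 of 19 probes, with A between 5.91 and 17.4 in control and between 7.06 and 16.9 in stressed cells. No probe of epithelial, endothelial or muscle markers passed. Of the blood markers 1 of 7 probes passed, Cd3e, with A of 6.06 and 5.93.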

How the data were processed

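RNA of the P (Cy3) and FM (Cy5) fractions was measured on 1 two-colour Agilent array per condition, each with RNA pooled from 3 preparations, and the labels gave the groups. Per the file headers, the deposited spot and background intensity values were extracted with Agilent Feature Extraction 10.7.1 (so named in the submitters' processing notes) and were not normalized. Per the file headers, flags mark outliers, saturation and spots well above background. The authors also made a table of log2 ratios of 11483 transcripts after background correction and without normalization, and 99.99% of its control values lay within 0.001 of those computed here.

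With limma 3.58.1 in R 4.3.3, each spot's mean intensity was reduced by its median local background, and results under 0.5 were set to 0.5, after the study's methods. No normalization was applied. The 295 spots flagged as outliers were left out, and spots of a probe were averaged. Where 1 channel was not well above background, the ratio used the higher of its own signal and the lowest signal well above background on that array. On the control array that lowest signal was 0.5, the value that low signals were set to. Such ratios are therefore uncertain and are not bounds. Fold changes were computed as differences of log2 values, and with 1 array per group no test was made. The steps were checked on simulated data. Names were matched to RefSeq (GRCm38.p6) for all 9 members, 5 of which have been renamed. Exon annotation on mm9 was not used here, so the part of each transcript under a probe is not given.

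All members and probes are named. From each related list, up to 3 probes with the largest rise and fall were named among those whose signals were all well above background and whose A was above 7. The members, the lists and these rules were chosen with earlier results of these data known. Alternatives were another background correction or none, median spot signals, the processed signals of the scanner software, loess, centring, spike-in scaling, quantile normalization of A, other filters, 1 value per gene name and the authors' table. Changes in A relative to the median of all probes were added after seeing the data. Python 3.11.15 with pandas 2.3.3 and numpy 2.4.6 computed the summaries.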

Additional observations from a re-analysis of the deposited data

How the results depend on the processing

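No paired analysis was possible because each condition had 1 array. The changes of Cyr61, Ctgf, Wisp1, Lats2, Amotl2 and Ankrd1 in log2 P/FM kept their sign in 13 of 13 alternatives. Wisp2 did in 12 of 13, with 0.32 under spike-in scaling, and Yap1 in 10 of 13. Many of these alternatives could not turn a rise. For a gene with 1 probe, the filters, gene averaging, the authors' table and quantile normalization of A return the same change. Centring and spike-in scaling add the same positive amount to every change. The median change of the members was 1.58 with centring, 1.43 with every signal well above background, 1.78 with loess, 1.87 with processed signals and 3.62 with spike-in scaling. It was below 1 with normexp (0.766), without background subtraction (0.769) and without the filter on A (0.990). Every member median under these last settings is over 12 probes, because the Nov probe, at background level, entered as well. Amotl2 was below 1 with median spot signals and without background subtraction, and the mean over Lats2 probes was below 1 without background subtraction (0.95) and with normexp (0.84). Their median in control cells was -0.29 with A above 7 and with 1 value per gene name, -0.42 with the authors' table and with every signal well above background, -1.13 with loess, -0.48 without background subtraction, -1.15 with processed signals and -0.40 with spike-in scaling. In stressed cells it was 0.91 with centring, 0.31 without background subtraction, 0.33 with normexp, 1.09 with processed signals and 3.58 with spike-in scaling. The median change in A was -0.48 relative to all probes, -0.84 with normexp, -0.55 with quantile normalization and -0.47 with processed signals. Probes higher by 1 or more in A numbered 0 with normexp. Probes higher in log2 P/FM numbered 10 and lower ones 0 with spike-in scaling, and lower ones 2 without the filter on A, the added one being Nov at background level. The median change of all probes was above 0 with normexp (0.39) and with spike-in scaling (1.94). The cause was not tested for any of these. With 1 array per condition and 1 spot per probe, a change in a member has no error of its own, and Nov and the dim Lats2 probes are limited by background.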

Other observations

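Wisp3, the CCN gene that is not among the members, had 2 probes. On the control array the probe of NM_001127376 had a P signal of 9211 and an FM signal of 8786, and the spot was flagged as non-uniform in both channels. On the thapsigargin array the same probe had 2.74 and 17.0 and was not well above background. The other probe was dim on both arrays, not well above background in any channel, with P of 9.49 and 9.95 and FM of 11.8 and 20.5. The bright control spot therefore rests on 1 flagged spot, and no fold is given for it.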
